A study of Mus musculus with 9 samples.

Results

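Chil1, Chil3, Chit1 and Fcnb are 4 mouse genes for secreted proteins that bind sugar polymers, and they are described here in leukemia cells from bone marrow. They were taken by gene name from a table of 55536 genes, and each of the 4 names matched 1 row. The 4 were chosen by their TPM in these same libraries, being far lower in the group labelled as the Irf7 knockout than in WT cells of the same sort, so this difference is given as a description without a test. All 9 libraries came from GFP+ leukemia cells on a C57BL/6J background. The leukemia was made by putting a retrovirus with MLL-AF9 and GFP into c-kit+ cells of WT or IRF7-/- mice. The cells were transplanted into recipients of 6 to 8 weeks that had not been irradiated, and bone marrow was taken on day 18. AML-WT cells were sorted by c-kit. AML-WT-c-kit- is called c-kit- WT below, while AML-WT-c-kit+ is called c-kit+ WT. The third group, sorted as c-kit+ only, carries the label AML-IRF7-/--c-kit+ and is called the IRF7-/--labelled libraries, and each group has 3. In the genotype labels the WT groups are control-GFP overexpression and the third group is IRF7-/--GFP overexpression. Kit encodes the receptor c-kit, a marker of immature cells. The knockout allele replaces exons 2 and 3 of Irf7 by a PGK-beta-geo cassette, so a value for the whole gene can still count the other exons. The labels do not say whether the 3 libraries of a group came from separate mice, and p-values then measure only the spread between these samples, which may be technical.

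Chit1 encodes chitotriosidase, an enzyme that cuts chitin, the sugar polymer of fungal walls and arthropod shells. Chil1 (also called BRP-39) and Chil3 (also called Ym1) belong to the same protein family, glycoside hydrolase 18, but bind sugars without cutting chitin. Fcnb encodes ficolin B, a recognition molecule of the lectin pathway of complement that is made by myeloid cells. Neutrophils make their granules in order as they mature, primary granules in promyelocytes and secondary and tertiary granules later, and Chil3 is known from neutrophil precursors as well as from alternatively activated macrophages of the mouse.

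The coding sequences of the 3 chitinase family members differ where the enzyme has its catalytic glutamate. The stretch of 33 bases around it is shown because it separates the enzyme from the lectins. Capitals mark the codon of the catalytic glutamate in Chit1 and the codon aligned with it in the others, from the GENCODE M21 transcripts, 5′ to 3′.
Chit1: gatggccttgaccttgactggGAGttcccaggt
Chil1: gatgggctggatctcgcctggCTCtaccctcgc
Chil3: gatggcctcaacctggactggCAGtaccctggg
The marked codon is number 140 in Chit1, 149 in Chil1 and 140 in Chil3. It reads GAG in Chit1, CTC in Chil1 and CAG in Chil3, so the glutamate codon of the enzyme is absent from both lectins. Over the aligned coding sequence, Chil1 and Chit1 shared 60.1% of bases and 48.5% of protein positions. Chil3 shared 56.4% of bases with Chit1 and 53.9% with Chil1. Chil3 was far closer to its neighbour Chil4, with 95.4% of bases and 91.2% of protein positions identical. Of the stretches of 50 bases in the Chil3 transcript, 29.4% also occurred in other genes, namely Chil4 and Gm6522, so reads of Chil3 and Chil4 may be split between them. For Chil1, Chit1 and Fcnb this share was 0%, and no annotated gene overlapped any of the 4.

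Values are TPM, transcripts relative to a fixed sum per library, a unit that takes account of gene length and library total and keeps no read number. The level of Irf7 was 23.5, 22.3 and 32.3 TPM in c-kit- WT replicates 1, 2 and 3, and 5.31, 3.91 and 3.36 TPM in c-kit+ WT. In the IRF7-/--labelled libraries it read 12.8, 5.97 and 7.95 TPM, more than in any c-kit+ WT library, so it does not show a loss of Irf7. Since this level can count exons other than 2 and 3, it cannot decide on the knockout. The paper states that IRF7 in its models was checked by qRT-PCR and Western blot. As the values here cannot check the knockout, these libraries are called by what their label says. Every comparison with them depends on that label. Phrf1 overlaps Irf7 on the other strand. Kit was between 50.7 and 58.5 TPM in c-kit+ WT, between 70.3 and 85.7 TPM in the IRF7-/--labelled libraries, and 0.52, 1.19 and 3.03 TPM in c-kit- WT replicates 1, 2 and 3. Genes of T cells (6 genes, summed level at most 1.96 TPM in any library) and NK cells (4 genes, at most 0.94 TPM) were near 0. Not every other lineage was. The 6 B cell genes summed to between 26.4 and 38.1 TPM, mostly Cd79b. Genes of endothelium and stroma (6 genes) summed to between 16.8 and 59.5 TPM, mostly Lepr. The leukemia genes Hoxa9, Hoxa10 and Meis1 summed to between 238 and 416 TPM in every library. The c-kit- WT replicate 3 stood apart within its group. Its 7 mature neutrophil markers summed to 24600 TPM, against 5170 and 6270 TPM in replicates 1 and 2. The tested differences of the 4 genes from c-kit- WT are given with and without it. Of other results, only the named calls that changed without it are given both ways.

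Chit1, the enzyme (GRCm38, chr1:134111242-134151540, plus strand, 12 exons), was found almost wholly in c-kit+ WT. Its level there was 57.7, 47.5 and 66.0 TPM in replicates 1, 2 and 3, with a mean of 57.1 ± 9.26 TPM (SD, n = 3). In c-kit- WT it was 0.72, 1.56 and 2.71 TPM, with a mean of 1.66 ± 0.999 TPM. It was listed at 0, 0.04 and 0 TPM in the IRF7-/--labelled libraries. The 3 groups did not overlap, and the c-kit- WT replicate with the highest Kit also had the highest Chit1.

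Chil1 (chr1:134182176-134190181, plus strand, 10 exons) was measured in all 3 groups. The c-kit+ WT libraries had 609.7, 387 and 513 TPM, with a mean of 503 ± 112 TPM (SD, n = 3). The c-kit- WT libraries had 79.6, 73.5 and 236 TPM, with a mean of 130 ± 92.3 TPM, and replicate 3 was again the highest. The IRF7-/--labelled libraries had 0.98, 1.34 and 0.55 TPM, with a mean of 0.957 ± 0.396 TPM. No library of one group reached the range of another.

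Chil3 (chr3:106147554-106167564, minus strand, 11 exons) was the most abundant of the 4 in every library. In c-kit+ WT it had 7606, 6239 and 10836 TPM, with a mean of 8230 ± 2360 TPM (SD, n = 3). In c-kit- WT it had 6661, 3486 and 3183 TPM, with a mean of 4440 ± 1930 TPM. The WT groups overlapped, since replicate 1 of c-kit- WT was above replicate 2 of c-kit+ WT. Chil3 in the IRF7-/--labelled libraries had 496, 1060.3 and 387 TPM, with a mean of 648 ± 361 TPM, below every WT library. Among all genes of a library ordered by TPM, Chil3 stood at place 8, 11 and 4 in c-kit+ WT and at place 8, 22 and 25 in c-kit- WT. It stood at place 270, 145 and 336 in the IRF7-/--labelled libraries. It alone made up 0.769%, 0.631% and 1.09% of the summed TPM of the c-kit+ WT libraries.

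Fcnb, for ficolin B (chr2:28076378-28084885, minus strand, 9 exons), had 1705, 1133 and 1356 TPM in c-kit+ WT, with a mean of 1400 ± 288 TPM (SD, n = 3). In c-kit- WT it had 51.3, 67.2 and 165 TPM, with a mean of 94.5 ± 61.5 TPM and replicate 3 the highest. In the IRF7-/--labelled libraries it had 9.72, 21.5 and 7.39 TPM, with a mean of 12.9 ± 7.54 TPM. The 3 groups did not overlap. For all 4 genes the group means stood in one order, lowest in the IRF7-/--labelled libraries, then c-kit- WT, then c-kit+ WT, and the WT neighbours in that order overlapped for Chil3 but not for the other 3. Replicate 2 was the highest of the IRF7-/--labelled libraries for each of the 4.

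**Figure D1:**
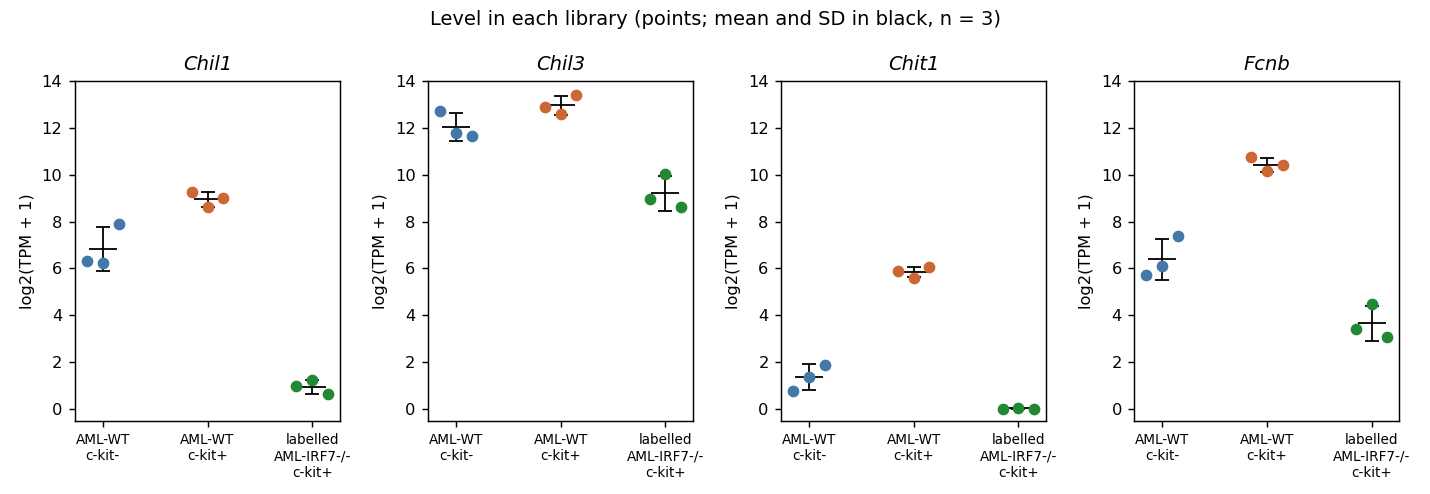
Level of each gene as log2(TPM + 1) in the 9 libraries, 1 panel a gene; points are libraries and black bars are the mean and SD of 3 libraries. In each panel the IRF7-/--labelled points are the lowest, and the WT groups overlap for Chil3 only, where replicate 1 of c-kit- WT has 6661 TPM and replicate 2 of c-kit+ WT has 6239 TPM.

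The comparison of c-kit+ WT with c-kit- WT asks how the 4 genes go with surface c-kit in leukemia of one genotype. Chit1, Fcnb and Chil1 were higher in c-kit+ WT, and Chil3 did not pass the test. Differences are in log2(TPM + 1) and understate the change of low genes such as Chit1. A gene was called changed where its difference was at least 1 in size with a Benjamini-Hochberg adjusted p under 0.05 by limma, over the 13261 genes that reached 1 TPM in 3 or more of the 6 libraries. All 4 genes were tested, with 3 called higher and 0 lower, where 4.83% of all genes tested were called higher and 9.61% lower. Chit1 was at 0.72 TPM in replicate 1 of c-kit- WT, so it needed c-kit+ WT libraries to pass the filter. The libraries of the groups did not overlap for 3 of the 4, with the c-kit+ WT libraries higher, as for 19.7% of all genes tested. This comparison shares the c-kit+ WT libraries with the difference that chose the genes, so these p-values are not independent of the choice. The c-kit+ WT level of Chit1 was above that in c-kit- WT by a log2 difference of 4.50 (standard error 0.28, limma adjusted p = 5.72e-05), the third highest difference of all genes tested. For Fcnb the difference was 4.04 (standard error 0.42, limma adjusted p = 0.000411), the seventh highest. The difference of Chil1 was 2.14 (standard error 0.45, limma adjusted p = 0.00877), at place 146. For Chil3 it was 0.93 (standard error 0.33, limma adjusted p = 0.0633). As ratios of mean TPM, these were 34.3 for Chit1, 14.8 for Fcnb, 3.88 for Chil1 and 1.85 for Chil3. The median difference over all genes tested was −0.08.

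The call of Chil3 hung on the libraries and on the scale. Without replicate 1 of c-kit- WT, the difference of Chil3 was 1.27 (limma adjusted p = 0.0157). With the values rescaled after the 10 most abundant genes and the 4 themselves were taken out of the totals, it was 1.03 (limma adjusted p = 0.048). Without replicate 3 of c-kit- WT, the difference was 0.73 for Chil3 (limma adjusted p = 0.159), 2.68 for Chil1 (0.000296), 4.78 for Chit1 (0.00011) and 4.53 for Fcnb (0.000103). An exact two-sided permutation test of each gene alone gave p = 0.1 for Chil1, Chit1 and Fcnb, the smallest that 3 libraries against 3 allow, and p = 0.2 for Chil3.

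The 4 genes were also compared with each other, by the difference of their log2 levels within each library. The log2 change from c-kit- WT to c-kit+ WT was smaller in Chil3 than in Chit1, with a difference of −3.57 between them, and smaller in Chil1 than in Chit1, with −2.36. Against Fcnb the change of Chil3 differed by −3.11 and that of Chil1 by −1.90. Each of these 4 gave an exact two-sided permutation p of 0.1, the smallest possible, and 0.15 after adjustment over the 6 pairs. Chit1 and Fcnb differed by 0.46 (exact permutation p = 0.2, adjusted 0.24) and Chil1 and Chil3 by 1.21 (exact permutation p = 0.3, adjusted 0.3). No pair could pass an adjusted threshold of 0.05 in this design.

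Against c-kit+ WT, all 4 genes were lower in the IRF7-/--labelled libraries, which is the difference that chose them. On the log2(TPM + 1) scale, Chil1 was at −8.01 (standard error 0.21), the lowest value of 13238 genes tested. Fcnb was at −6.77 (standard error 0.36), the second lowest, and Chit1 at −5.83 (standard error 0.14), the fourth lowest. Chil3 was at −3.77 (standard error 0.39), at place 41. The mean level in c-kit+ WT was 526 times that in the IRF7-/--labelled libraries for Chil1, 109 times for Fcnb and 12.7 times for Chil3. No ratio is given for Chit1, which was listed at 0 in replicates 1 and 3. With a pseudocount of 0.1 in place of 1, the difference was −8.98 for Chit1 and −8.95 for Chil1, so the order between Chit1 and Chil1 depends on the pseudocount. All 4 passed the thresholds for a lower call, which 5.39% of all genes tested did (6.3% passed those for a higher call). Chit1 passed the filter through its c-kit+ WT libraries alone, so it could only come out lower here. Chil1 needed them too, since only 1 of the IRF7-/--labelled libraries reached 1 TPM (1.34 TPM), so the filter leaned to a lower value. The groups overlapped for none of the 4, and 20.1% of all genes tested were lower without overlap. Nothing is read from these counts. The median over all genes tested was 0.12.

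Against c-kit- WT, Chil1, Chil3 and Fcnb were lower in the IRF7-/--labelled libraries too. This comparison uses the same IRF7-/--labelled libraries and is likewise given as a description. Chil1 was at −5.87 (standard error 0.44), place 12 from the lowest of 13510 genes tested. Chil3 was at −2.83 (standard error 0.43) and Fcnb at −2.73 (standard error 0.51). Chit1 was not tested, having reached 1 TPM in 2 of these 6 libraries. Chil1 passed the filter only with its c-kit- WT libraries, so the filter leaned to a lower value for it. The 3 tested genes passed the thresholds for a lower call, as 11.9% of all genes tested did (8.4% passed those for a higher call), and their libraries lay below without overlap, as for 32.4% of all genes tested. Without replicate 3 of c-kit- WT the values were −5.33 for Chil1, −3.03 for Chil3 and −2.24 for Fcnb. In bulk samples, fewer cells that express a gene and less RNA of it per cell cannot be told apart.

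**Figure D2:**
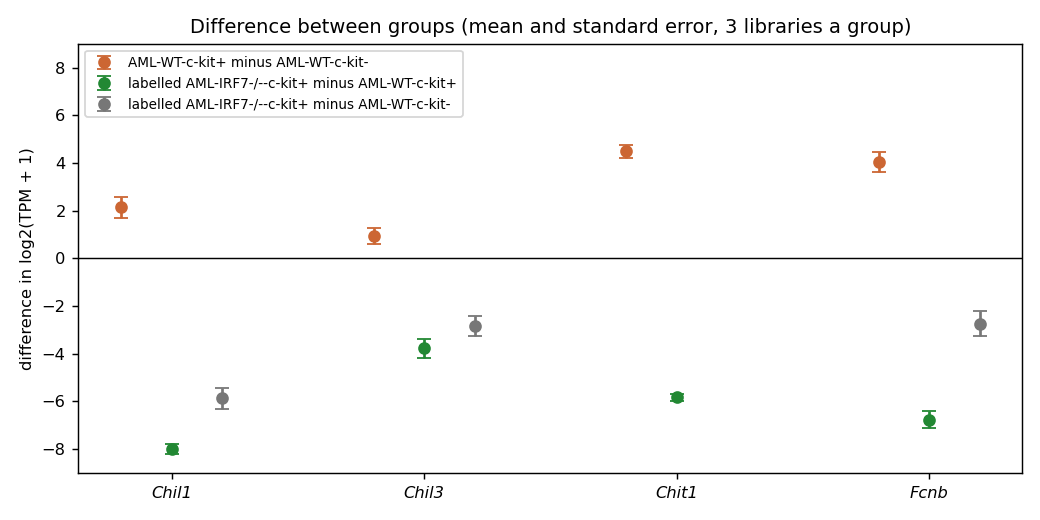
Difference in log2(TPM + 1) of each gene in the 3 comparisons, with standard errors from limma on 3 libraries a group; Chit1 has no point against c-kit- WT since it did not pass the filter there. Orange points lie above 0, from 0.93 for Chil3 to 4.50 for Chit1, and green points lie below 0, from −3.77 for Chil3 to −8.01 for Chil1.

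The proportions of the 4 within a library, which do not depend on the library total, differed between the groups. Fcnb was 2.80, 2.93 and 2.64 times Chil1 in c-kit+ WT, and 0.644, 0.915 and 0.698 times Chil1 in c-kit- WT. In the IRF7-/--labelled libraries it was 9.92, 16 and 13.4 times Chil1, so the 3 groups were apart. Chil1 was only 0.98, 1.34 and 0.55 TPM there, so all ratios to Chil1 in that group are uncertain. Chil1 was 10.6, 8.15 and 7.77 times Chit1 in c-kit+ WT, and 111, 47.1 and 87.2 times Chit1 in c-kit- WT. The c-kit- WT ratios rest on Chit1 levels of only 0.72, 1.56 and 2.71 TPM, so they are uncertain too. Chil3 was 4.46, 5.51 and 7.99 times Fcnb in c-kit+ WT. In c-kit- WT the same ratio was 130, 51.8 and 19.3, and in the IRF7-/--labelled libraries it was 51.0, 49.4 and 52.4. These lay within the range of c-kit- WT only through its replicate 3, since 51.0 and 49.4 were below 51.8. Chil3 was 12.5, 16.1 and 21.1 times Chil1 in c-kit+ WT and 83.6, 47.4 and 13.5 times in c-kit- WT, where replicate 3 lay inside the c-kit+ WT range. It was 506, 791 and 704 times in the IRF7-/--labelled libraries. Chil3 was thus the gene that kept most of its level in both lower groups.

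The granule genes of neutrophils were set beside the 4. Of 11 genes of secondary and tertiary granules, 9 were called lower in the IRF7-/--labelled libraries against c-kit+ WT and 0 higher, with a median difference of −3.37. Camp, for the antimicrobial peptide cathelicidin, fell by 5.82 as a log2 difference (limma adjusted p = 4.29e-05). Ngp, for neutrophilic granule protein, fell by 5.74 (limma adjusted p = 7.83e-05), Ltf, for lactoferrin, fell by 4.88 (0.000111) and Lcn2, for lipocalin-2, fell by 3.79 (0.000166). Mmp25 and Hp were not called, at −0.72 and −0.12. Of 6 genes of primary granules, Ctsg, for cathepsin G, rose by 1.63 (limma adjusted p = 0.000894) and Prss57, a serine protease, fell by 1.10 (0.000743), which was −0.96 and no longer called without replicate 1 of the IRF7-/--labelled libraries. Elane, Mpo, Prtn3 and Bpi were not called, and the median of the 6 was 0.

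Between the WT groups, 6 of the 6 primary granule genes were called higher in c-kit+ WT, with a median difference of 2.22. Bpi, at 0.45, 0.51 and 0.98 TPM in c-kit- WT, passed the filter through its c-kit+ WT libraries alone (3.34 to 4.2 TPM) and was not tested with any of these left out, which leaves 5. Mpo, for myeloperoxidase, rose by 3.48 (limma adjusted p = 1.95e-05). Of the 11 secondary and tertiary granule genes, 5 were called higher (Camp by 3.98, Ngp by 2.98, Olfm4 by 2.58, Pglyrp1 by 2.26 and Cd177 by 1.31). Mmp8, for neutrophil collagenase, was called lower at −3.79, and the remaining 5 were not called. Without replicate 3 of c-kit- WT, 7 were called higher and 1 lower, with Ltf at 2.00 (limma adjusted p = 0.00975) and Lcn2 at 2.08 (0.00303) now among them. The call of Cd177 was lost in 4 of the 6 fits that left out 1 library, with limma adjusted p up to 0.0688. Against c-kit- WT, the IRF7-/--labelled libraries had 6 primary granule genes called higher, Bpi again through the higher group alone, and 7 secondary and tertiary granule genes called lower. Without replicate 3 of c-kit- WT, 6 of the 7 were called lower, since Olfm4 was at −1.33 (limma adjusted p = 0.0534). Without replicate 1 or replicate 3 of the IRF7-/--labelled libraries 5 were, with both Camp and Olfm4 lost, and Camp was also lost without replicate 2 of c-kit- WT (limma adjusted p = 0.0601). The summed level of the 11 secondary and tertiary granule genes was 31900, 17900 and 26800 TPM in c-kit+ WT, 3220, 3450 and 10300 TPM in c-kit- WT, and 1940, 2350 and 1940 TPM in the IRF7-/--labelled libraries. Replicate 3 of c-kit- WT and replicate 2 of the IRF7-/--labelled libraries were the highest of their groups, as for Chil1, Chit1 and Fcnb. In c-kit+ WT replicate 1 was the highest, as for Chil1 and Fcnb, while Chit1 was highest in replicate 3. Chil3 matched in the IRF7-/--labelled libraries only, being highest in replicate 1 of c-kit- WT and replicate 3 of c-kit+ WT. The part of more mature neutrophil cells in the differences of the 4 genes was not tested.

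**Figure D3:**
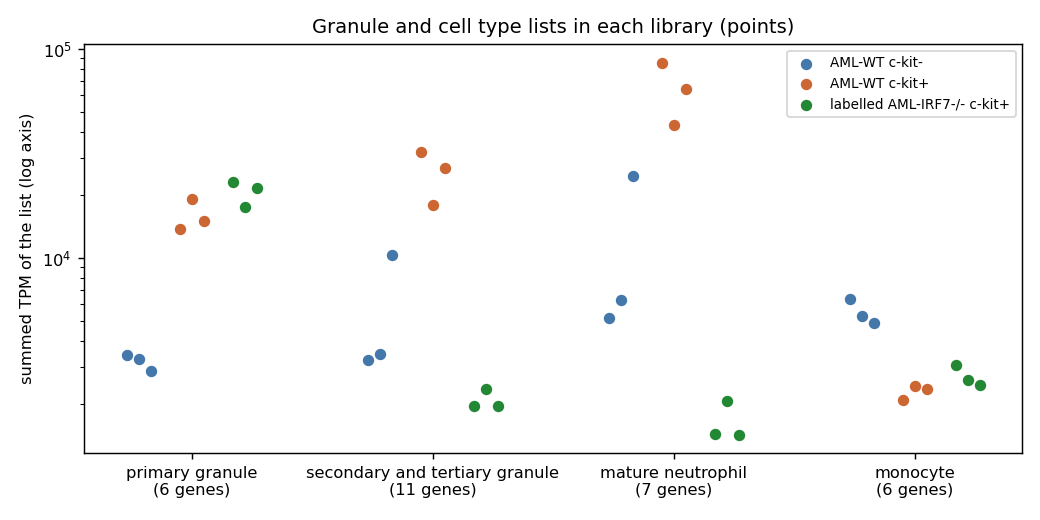
Summed TPM, on a log axis, of 4 gene lists in each of the 9 libraries (points, coloured by group). The secondary and tertiary granule list lies between 1940 and 2350 TPM in the IRF7-/--labelled libraries and between 17900 and 31900 TPM in c-kit+ WT, while the primary granule list lies between 17400 and 23100 TPM and between 13700 and 19000 TPM in these groups.

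The marker lists of myeloid cell types moved in different ways. The 7 mature neutrophil markers, among them Ly6g, Cxcr2, S100a8 and S100a9, summed to between 43300 and 85800 TPM in c-kit+ WT and between 1420 and 2060 TPM in the IRF7-/--labelled libraries. S100a8 (17013 to 32010 TPM) and S100a9 (26183 to 53539 TPM) made up most of the c-kit+ WT sum. Between the WT groups, S100a8 and S100a9 were called higher in c-kit+ WT and Mmp8 lower, while Ly6g, Cxcr2, Retnlg and Csf3r were not called. Without replicate 3 of c-kit- WT, Ly6g was called higher, at 1.17 (limma adjusted p = 0.0466). The 7 granulocyte precursor markers summed to between 14700 and 20000 TPM in c-kit+ WT and between 17900 and 23700 TPM in the IRF7-/--labelled libraries. Elane, Mpo, Prtn3 and Ctsg of this list are also in the primary granule list, so the lists are not separate readings. The 6 monocyte markers were highest in c-kit- WT, at 4890 to 6330 TPM, against 2090 to 2430 TPM in c-kit+ WT and 2460 to 3060 TPM in the IRF7-/--labelled libraries. Ly6c2, not called in any comparison, made up most of the sum in c-kit+ WT (1882 to 2096 TPM) and the IRF7-/--labelled libraries (2204 to 2799 TPM). The other 5 were called lower in c-kit+ WT than in c-kit- WT. In the IRF7-/--labelled libraries against c-kit+ WT, Cx3cr1 and Fn1 were called lower and 0 higher. The 9 macrophage markers summed to between 388 and 465 TPM in c-kit- WT and to at most 142 TPM elsewhere, with Marco, Vsig4 and Timd4 under 1 TPM in every library. Cd68, at 286 to 343 TPM in c-kit- WT, made up most of that sum. Of the 6 macrophage markers tested between the WT groups, Cd68, Adgre1 and Cd163 were called lower in c-kit+ WT and C1qa, C1qb and C1qc higher, at levels under 5 TPM. C1qa and C1qc passed the filter through their c-kit+ WT libraries alone and were not tested with any of these left out. C1qc was also not called without replicate 1 (0.98) or replicate 2 (0.99) of c-kit- WT. The part of these cells in the results was not tested.

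The wider chitinase family was mixed, with Chil4 and Chil5 called lower in the IRF7-/--labelled libraries than in c-kit+ WT and Chid1, Ctbs and Ovgp1 not called. Of 7 other family members, Chia1 and Chil6 were under 1 TPM in every library, and of the 5 tested, none was called between the WT groups in either direction by limma, with Ctbs (limma adjusted p = 0.00687) the one with an adjusted p under 0.05, at −0.55. Without replicate 2 of c-kit+ WT, Chil4 was called higher, at 1.01 (limma adjusted p = 0.0248). Chid1, at 12 to 17.6 TPM, and Ctbs, for the lysosomal enzyme di-N-acetylchitobiase, at 11.6 to 21.4 TPM, had narrow ranges over all 9 libraries. Chil4 had 7.45, 3.32 and 6.36 TPM in c-kit+ WT, 2.62, 2.16 and 4.25 TPM in c-kit- WT, and 0.42, 1.36 and 0.30 TPM in the IRF7-/--labelled libraries. It fell by 1.98 (log2) from c-kit+ WT to the IRF7-/--labelled libraries (limma adjusted p = 0.00327), with the reserve on its near-identical copy Chil3, whose level was also highest in replicate 2 of that group. Chil5 was listed at 0 in all of the IRF7-/--labelled libraries and had 1.25 to 1.5 TPM in c-kit+ WT (difference −1.25, limma adjusted p = 0.000846). With any 1 of these 3 left out, Chil5 reached 1 TPM in too few libraries to be tested.

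Among 7 genes of the lectin pathway other than Fcnb, only Fcna and Colec11 passed the filter. Fcna, for ficolin A, had 1.80, 1.51 and 2.60 TPM in c-kit+ WT, 4.93, 5.28 and 3.81 TPM in c-kit- WT and 1.52, 0.72 and 1.12 TPM in the IRF7-/--labelled libraries. It was thus highest in c-kit- WT, where Fcnb was not. Its difference between c-kit+ WT and c-kit- WT was −0.94 (limma adjusted p = 0.00729), just short of the fold threshold, which it passed without replicate 3 of c-kit- WT (−1.06) or without replicate 3 of c-kit+ WT (−1.09). From c-kit+ WT to the IRF7-/--labelled libraries it was −0.49 (limma adjusted p = 0.0975). Against c-kit- WT, Fcna was called lower in the IRF7-/--labelled libraries, the same direction as Fcnb. The collectins Mbl1, Mbl2 and Colec10 were listed at 0 in every library, and Masp1 and Masp2, for the proteases that act after ficolins bind, were under 1 TPM.

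Of 4 genes for proteins described to bind chitinase-like proteins, Il13ra2 was listed at 0 in every library. Lgals3, for galectin-3, had 820, 709 and 915 TPM in c-kit- WT, 81.9, 59.9 and 96.9 TPM in c-kit+ WT and 25.0, 42.7 and 36.2 TPM in the IRF7-/--labelled libraries. It was lower in c-kit+ WT than in c-kit- WT by a log2 difference of −3.36 (limma adjusted p = 3.45e-05), the opposite direction to Chil1. From c-kit+ WT to the IRF7-/--labelled libraries it was at −1.18 (limma adjusted p = 0.0067), and at −0.97 and no longer called without replicate 1 of the IRF7-/--labelled libraries. Cd44 and Tmem219 were not called in any of the 3 comparisons. Of 6 genes for the release and reuse of N-acetylglucosamine, the sugar unit of chitin, 0 were called between the WT groups, with 3 of them (Hexa, Nagk and Gnpda1) at a limma adjusted p under 0.05 and a difference of less than 1.

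Transcription factors of the granulocyte and monocyte lines were followed in a list of 10. Cebpe, for C/EBPε, a factor of secondary granule genes, had 366, 269 and 334 TPM in c-kit+ WT, 25.5, 27.6 and 70.4 TPM in c-kit- WT and 132, 139.8 and 135 TPM in the IRF7-/--labelled libraries. It rose by 3.09 from c-kit- WT to c-kit+ WT (limma adjusted p = 0.00084) and fell by 1.24 from there to the IRF7-/--labelled libraries (0.000355). Its level in the IRF7-/--labelled libraries was therefore above every c-kit- WT library, while Chil1, Chil3, Chit1 and Fcnb were below every one. Gfi1, a repressor needed for granulocytes, rose by 3.84 in c-kit+ WT (limma adjusted p = 4.53e-05) and was not called in the IRF7-/--labelled libraries against it, at −0.51. Irf8 and Klf4, factors of the monocyte line, were called lower in both steps, though Klf4 was not tested in the second when any c-kit+ WT library was left out. Irf8 was at −2.08 in c-kit+ WT against c-kit- WT (limma adjusted p = 0.00017) and at −1.59 in the IRF7-/--labelled libraries against c-kit+ WT (0.007). In all, 3 rose and 3 fell between the WT groups, and 0 rose and 3 fell in the IRF7-/--labelled libraries against c-kit+ WT.

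Chil3 is also used as a marker of alternatively activated macrophages, so 12 other genes of that state were read. Retnla, Ccl17, Ccl22 and Pdcd1lg2 were under 1 TPM in every library, and Arg1 and Ccl24 did not pass the filter in any comparison. Mgl2, for a macrophage lectin, was called higher in c-kit+ WT than in c-kit- WT (difference 2.41, limma adjusted p = 0.000141) and higher again in the IRF7-/--labelled libraries (3.38, 8.17e-05). Its range was 3.06 to 3.38 TPM, 17.3 to 28.8 TPM and 191 to 258 TPM in these groups in that order, the highest where Chil3 was lowest. Clec10a, a related lectin, was called lower between the WT groups, at −2.17 (limma adjusted p = 0.00049). In the IRF7-/--labelled libraries against c-kit+ WT, 5 of the 12 were tested, with Mgl2 called higher, Chil4 called lower and 3 not called.

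**Figure D4:**
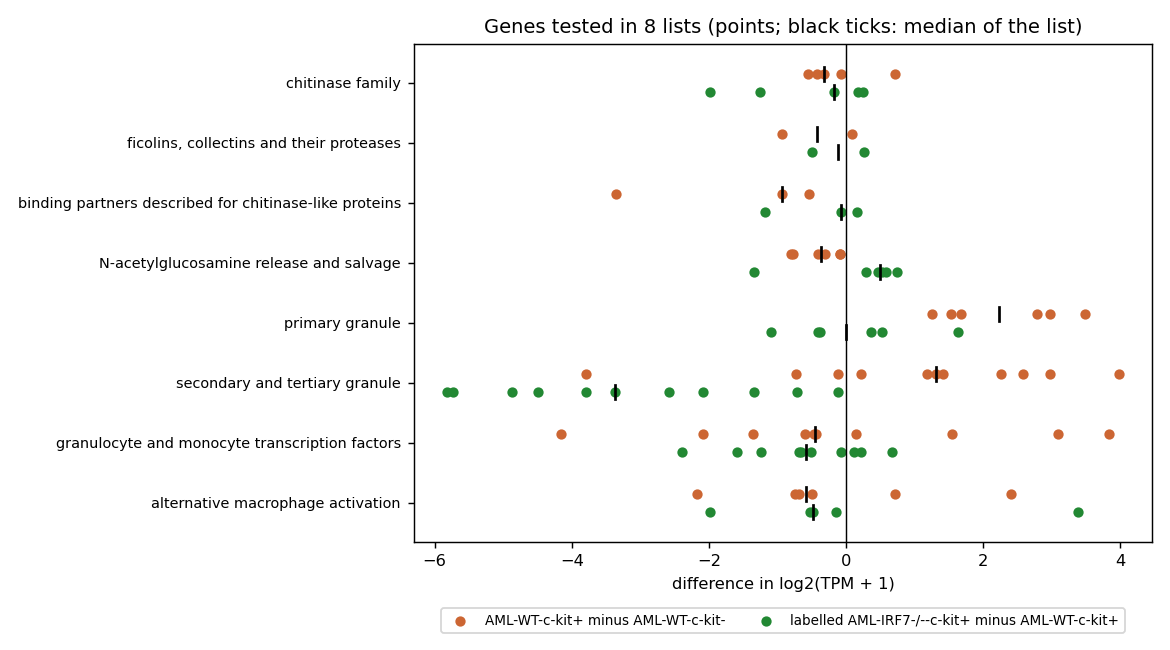
Difference in log2(TPM + 1) of each tested gene of 8 lists (points) with the median of each list (black ticks), for c-kit+ WT minus c-kit- WT (orange) and for the IRF7-/--labelled libraries minus c-kit+ WT (green). The secondary and tertiary granule list has medians of 1.31 and −3.37, and the primary granule list has medians of 2.22 and 0.

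Chit1 and Chil1 lie next to each other on chromosome 1, in the same direction, with 30.6 kb between them. The protein-coding genes within 100 kb of any of the 4 were read for that reason. Mybph, a muscle gene 3.27 kb from Chil1, had 2.07, 1.52 and 1.56 TPM in c-kit+ WT and 0.07, 0.42 and 0.60 TPM in c-kit- WT, and it was listed at 0 in all of the IRF7-/--labelled libraries. It was called higher in c-kit+ WT than in c-kit- WT (difference 1.01, limma adjusted p = 0.00739) and lower in the IRF7-/--labelled libraries (−1.44, 0.000673), at levels near the filter. Without replicate 1 of c-kit- WT the first of these was 0.84 and not called, and with any c-kit+ WT library left out Mybph was not tested. Adora1 overlaps Mybph on the other strand, so their reads may not be told apart, and it did not pass the filter.

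Btg2, an antiproliferative gene 32.1 kb from Chit1 on its other side, had 79.4, 157 and 43.5 TPM in c-kit+ WT, 97.3, 249.7 and 172 TPM in c-kit- WT and 10.8, 8.53 and 13.2 TPM in the IRF7-/--labelled libraries. It fell by 2.82 from c-kit+ WT to the IRF7-/--labelled libraries (limma adjusted p = 0.00242). The WT groups overlapped for Btg2, with a difference of −0.97 (limma adjusted p = 0.178) that was called, at −1.44 (0.0497), without replicate 2 of c-kit+ WT. For Chit1 and Chil1 these groups did not overlap. Fmod and Myog were not tested. Near Chil3 lie Chia1 at 15.4 kb and Chil4 at 33.9 kb, both described above with the family, and Col5a1, 36.9 kb from Fcnb, did not pass the filter.

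**Figure D5:**
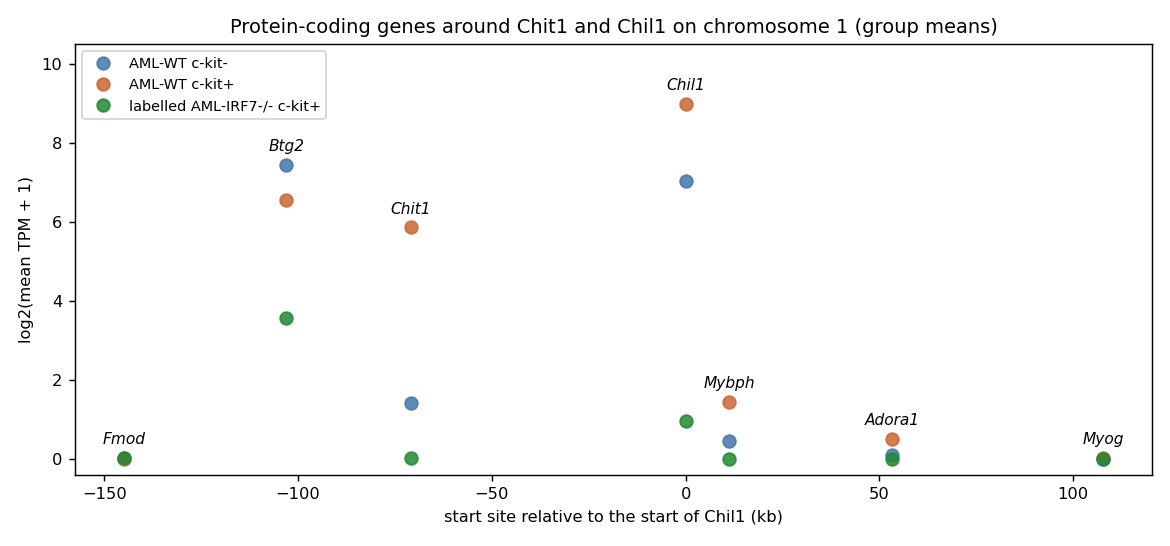
Group means as log2(mean TPM + 1) of the protein-coding genes around Chit1 and Chil1, against the distance of their start from the start of Chil1 in kb. Chit1, Chil1 and Mybph have the orange c-kit+ WT point highest and the green IRF7-/--labelled point lowest (means of 57.1, 503 and 1.72 TPM in c-kit+ WT), and Btg2 has the c-kit- WT point highest.

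The 250 bases before the RefSeq start of each gene (GRCm38.p6) were searched for 5 short motifs, since the 4 were low in the same libraries. The motifs were TTGCNNAA for C/EBP, GAGGAA for PU.1, GAAA, any 2 bases and GAAA again for IRF and TGTGGT for RUNX on both strands, and TATAA on the given strand, and none of these contains another. Capitals mark the matches in the 3 promoters that had one, on the strand of the gene, 5′ to 3′.
Fcnb, chr2:28084879-28085128, minus strand: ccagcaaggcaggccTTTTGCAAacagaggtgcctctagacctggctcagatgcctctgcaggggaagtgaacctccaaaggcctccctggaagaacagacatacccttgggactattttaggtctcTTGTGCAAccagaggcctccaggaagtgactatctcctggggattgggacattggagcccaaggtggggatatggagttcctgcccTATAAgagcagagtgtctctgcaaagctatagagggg
Chil1, chr1:134181906-134182155, plus strand: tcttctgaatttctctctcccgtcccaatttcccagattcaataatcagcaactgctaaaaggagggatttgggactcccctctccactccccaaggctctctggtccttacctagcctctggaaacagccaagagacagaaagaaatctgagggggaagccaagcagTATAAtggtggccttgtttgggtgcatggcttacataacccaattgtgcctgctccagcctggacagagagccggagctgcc
Chit1, chr1:134110992-134111241, plus strand: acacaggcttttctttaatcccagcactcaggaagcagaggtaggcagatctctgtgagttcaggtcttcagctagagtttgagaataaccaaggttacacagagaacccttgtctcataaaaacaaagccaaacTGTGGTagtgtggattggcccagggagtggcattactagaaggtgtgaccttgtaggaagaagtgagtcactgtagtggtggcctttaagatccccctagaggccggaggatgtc
Fcnb held the C/EBP letters 2 times, at 235 and 123 bases before its start, and TATAA at 37 bases. Chil1 held TATAA at 82 bases and Chit1 the RUNX letters at 115 bases. The C/EBP letters occur in 9.56% of 32851 promoters of this length, the RUNX letters in 14% and TATAA in 16%. The PU.1 letters (23.3% of promoters) and the IRF letters (2.98%) were in none of the 4, and Chil3 held none of the 5. No motif was thus common to all 4, and a match is a description of letters and not of a site.

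The genes with the most similar pattern were found by Pearson's r of log2(TPM + 1) over the 9 libraries, among 13962 genes. Since the libraries fall into 3 groups, r mainly reads the spacing of the group levels, and it carries no p. For Fcnb the 5 highest were Dsp (r = 0.995), Junos (0.992), the granule gene Camp (0.990), Lrg1 (0.989) and the granule gene Ngp (0.989). For Chil1 they were 9630013D21Rik (0.997), Irs2 (0.997), AC133103.2 (0.994), Gm5831 (0.993) and AC125149.3 (0.992). The genes most like Chit1 were Gm10129 (0.997), which overlaps Dsp on the other strand, Zfp697 (0.995), Zeb1 (0.991), Lipg (0.991) and Myadml2os (0.990). Those most like Chil3 had lower r, with Tnks1bp1 (0.985), Mmp28 (0.980), AC158975.2 (0.972), Ccni (0.968) and Firre (0.968). Over the WT libraries alone, 0 of these 5 stayed among the 5 most similar for each of the 4. Among the 4 themselves, r was highest for Chit1 and Fcnb (0.972) and lowest for Chil3 and Chit1 (0.781).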

How the data were processed

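RNA of sorted leukemia cells went into sequencing libraries (TruSeq RNA Sample Preparation Kit v2, per the labels), 3 in each of the 3 groups. The deposited values are TPM made by the authors, in 1 table with 55536 genes, and no header names the unit, which was taken from the library sums of 987468 to 992231. The aligner, quantifier, genome build and filters are not given in the sources used here. All identifiers are in GENCODE M21 (GRCm38), used for coordinates. TPM keep no read depth, so no counting interval is given, and the precision is that of 3 libraries.

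The 4 genes, the lists and the comparisons were chosen with earlier results of these data known. For each comparison the 6 libraries were fitted by limma 3.58.1 (R 4.3.3, eBayes with a trend) to log2(TPM + 1) of genes that reached 1 TPM in 3 or more of them, with Benjamini-Hochberg adjustment over all genes tested. The fit was tested on simulated data. Named genes were the 4, the 5 genes most similar to each, the abundant genes of each list and all called genes of a list with 5 or fewer calls, protein-coding neighbours within 100 kb, Irf7 and Kit. Other settings were quantile normalization, no filter, a pseudocount of 0.1, a filter of 5 TPM, rescaling without the 10 most abundant genes and the 4 members, all 9 libraries in 1 fit, the replicate number as a block, and each library left out. Python 3.11.15 with pandas 2.3.3, biopython 1.88 and matplotlib 3.10.9 read the sequences and drew the plots. One gene of a list is not reported here.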

Additional observations from a re-analysis of the deposited data

How the results depend on the processing

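With 3 libraries a group and no read depth, only large differences can be told from the spread, and values under about 1 TPM are uncertain. Of the results that answer a comparison, 212 values under other settings were labelled the same, 12 moved and 2 crossed the threshold. No difference of the 4 genes reversed. Only their differences between the WT groups were judged by the side of the threshold. In the comparisons with the IRF7-/--labelled libraries, a difference was the same if it shifted by less than the residual SD of the fit. Counts of called genes and of shared similar genes were the same if they stayed within a set ratio. Both crossings were Chil3 between the WT groups, at 1.03 after rescaling (limma adjusted p = 0.048) and over a range of 0.71 to 1.27 when 1 library was left out. Its limma adjusted p ran from 0.0157 to 0.173 over all settings. With 1 library left out, Chil1 ran from 1.84 to 2.68, Chit1 from 4.22 to 4.78 and Fcnb from 3.70 to 4.53, all called. For the IRF7-/--labelled libraries, a pseudocount of 0.1 gave −8.95 for Chil1 and −8.98 for Chit1 against c-kit+ WT and −6.80 for Chil1 against c-kit- WT, and rescaling gave −6.08 for Chit1. A smaller pseudocount widens differences of low values by construction. With a filter of 5 TPM, 531 in place of 834 genes were called higher against c-kit+ WT and 752 in place of 1135 against c-kit- WT, with fewer genes tested. The lists of the 5 most similar genes shared 0 genes for Chil1, 0 for Chil3, 0 for Chit1 and 0 for Fcnb over the WT libraries alone, and 1 for Chit1 and 3 for Fcnb with a pseudocount of 0.1. The cause was not tested.

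The replicate numbers were not taken as pairs: deviations from the group means of same-numbered libraries correlated at −0.07 to 0.24, over 0.1 in 1 of 9 pairs. With the replicate number as a block, the WT difference was 2.14 for Chil1 (limma adjusted p = 0.0106), 0.93 for Chil3 (0.0755), 4.50 for Chit1 (0.000595) and 4.04 for Fcnb (0.00222), and the block changed no call of these. It gave 649 genes called higher and 1301 lower.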

Other observations

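Colec11, for a collectin of the lectin pathway, had between 1208 and 1799 TPM in the 9 libraries, above Fcnb in 8 of them, although the other collectins read here were at 0. It was not called in any of the 3 comparisons, at 0.09, 0.26 and 0.35 on the log2 scale. Prss34, Mcpt8 and other basophil and mast cell genes summed to between 20.0 and 84.3 TPM over the 9 libraries, and Siglecf was called higher in c-kit+ WT than in c-kit- WT and higher again in the IRF7-/--labelled libraries. The 7 eosinophil markers summed to between 166 and 191 TPM there, of which Siglecf alone was 144 to 181 TPM. Ear2 of the same list was called lower in c-kit+ WT than in c-kit- WT (−1.61, limma adjusted p = 0.0128) and lower in the IRF7-/--labelled libraries than in c-kit- WT (−2.17, 0.00117). Prg2 was called higher in both of these comparisons, at 1.69 in the first (limma adjusted p = 0.0265). That first call was lost without replicate 1 or 2 of either group. Prg2 was not called in the IRF7-/--labelled libraries against c-kit+ WT, and Epx was under 1 TPM throughout.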
